A study of Mus musculus with 4 samples.

Results

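Cytosolic ribosomal protein genes encode the proteins of the large and small subunits of the ribosome in the cytosol. They were taken from the deposited table as protein-coding genes with symbols of the Rpl, Rps, Rplp and Rpsa type, which gave 82 of 55487 genes, 51 of the large subunit and 31 of the small. The rule used names alone, so it left out ribosomal protein genes such as Rps3a1, Fau and Rpl36al, and it took in paralogues with restricted expression such as Rpl3l and Rpl39l. Poly(A) RNA was sequenced from tumours of AXT cells, a mouse osteosarcoma line made from c-MYC-overexpressing stromal cells of the bone marrow. The control tumour came from Mock AXT cells of genotype WT. The knockout tumours came from 3 HIF-1alpha KO lines, labelled AXT1-1, AXT1-2 and AXT2. All cells were embedded in matrigel and injected into C57BL/6scid mice, which lack an adaptive immune system, and the tumours were taken after 1 day. The table holds 1 mock library and 3 knockout libraries, headed c11, c15 and c22. The labels used here do not tie these headings to the 3 lines, and they give no age for the mice. Whether a line is 1 clone was not stated either.

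Ribosomal protein mRNAs are among the most abundant in dividing cells and each ribosome needs nearly all of their products. Many of them begin with a C followed by a run of pyrimidines, the terminal oligopyrimidine (TOP) motif, through which mTORC1 and LARP1 control their translation. c-MYC raises transcription of ribosome genes in many tumours, and hypoxia is known to lower ribosome production through mTORC1. HIF-1alpha, the product of Hif1a, is the transcription factor that accumulates when oxygen is low.

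The TOP motif was looked for at the starts of these genes in the RefSeq promoter table (GRCm38.p6), which held 62 of the 82 members. A start base C followed by at least 4 pyrimidines was present at an annotated start of 13 of 62 members (21.0%), beside 3.01% of 27025 genes in the table and 3.01% of the 10839 of them that were tested. When the tract could begin within 5 bases of the annotated start, the shares were 46.8% of members, 21.2% of all genes in the table and 24.0% of those tested. The 13 tracts ran from 5 to 13 bases. The windows below run from 15 bases before the start to the first 15 transcribed bases, 5′ to 3′, with the tract in capitals. The first 6 genes carry the tract exactly at the annotated start and range from a long to a short tract. The last 2 are the paralogues Rpl22l1, whose tract begins 3 bases after the annotated start, and Rpl22, for which no such tract lies within 5 bases of either annotated start (1 of them is shown). This pair is described further on for its levels.
Rpl15 (chr14:18270972-18271001, minus strand): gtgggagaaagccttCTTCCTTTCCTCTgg
Rpl35 (chr2:39005117-39005146, minus strand): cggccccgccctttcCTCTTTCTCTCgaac
Rps6 (chr4:86857353-86857382, minus strand): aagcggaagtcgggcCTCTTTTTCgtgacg
Rps18 (chr17:33955651-33955680, minus strand): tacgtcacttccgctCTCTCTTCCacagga
Rps27 (chr3:90213634-90213663, minus strand): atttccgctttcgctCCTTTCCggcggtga
Rplp2 (chr7:141447636-141447665, plus strand): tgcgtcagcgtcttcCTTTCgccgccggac
Rpl22l1 (chr3:28805493-28805522, plus strand): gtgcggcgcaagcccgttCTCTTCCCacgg
Rpl22 (chr4:152325711-152325740, plus strand): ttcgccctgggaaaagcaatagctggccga

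The table promoters, 250 bases before to 50 after the start, were also searched on both strands for 4 short motifs. The shares are of genes, and some genes have more than 1 promoter. ACGTG or GCGTG, the core of the hypoxia response element, was found for 69.4% of members, 46.7% of all genes and 66.6% of tested genes. The E-box CACGTG, the MYC site, which contains ACGTG, was found for 9.68% of members, 8.09% of all genes and 11.5% of tested genes. CCGGAAG, the core of ETS and GABP sites, was found for 40.3% of members, 9.93% of all genes and 19.4% of tested genes. AAGATGG, the core of YY1 sites, was found for 16.1% of members, 7.28% of all genes and 8.22% of tested genes. A motif match describes the letters of a window and shows no binding. The shares depend on the starts that the annotation gives.

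Total counts ran from 12383719 in mock to 13193264 in c15, and 3 counts, the limit that a count of 0 allows, was 0.227 to 0.242 CPM (counts per 1000000 counts). Of the targeted gene Hif1a, mock had 107 CPM, c11 104 CPM, c15 98.7 CPM and c22 22.3 CPM, which is not a check of the knockout in c11 and c15, since a gene count covers all exons. Of the 12 osteosarcoma lineage markers none was at 0 in mock, and their summed level was 4560 CPM in mock, with 4314, 3935 and 10130 CPM in c11, c15 and c22. The level of Col1a1 among them was 862 CPM in mock, with 1913, 1093 and 4700 CPM in the same 3 libraries. The markers' median log2 ratios were below 0 in each, at -1.12, -0.59 and -0.45, and 7 of the 12 lay below mock in all 3 knockout libraries, beside 22.5% of all genes. Host cell markers differed between the libraries. Here and below, 4 values given without library names are in the order mock, c11, c15 and c22. The 16 skeletal muscle markers summed to 161 CPM in mock, with 15.03, 2.50 and 49.3 CPM in c11, c15 and c22, the 14 macrophage markers to 884, 280, 399 and 497 CPM, and the erythroid markers to 116, 1.63, 4.24 and 41.1 CPM. The neutrophil markers summed to 10.2, 4.65, 14.6 and 16.5 CPM and the host fibroblast markers to 208, 64.3, 218 and 149 CPM, so these were not highest in mock. Of 13 tested muscle markers 12, and of 14 tested macrophage markers 12, lay below mock in all 3 knockout libraries, beside the same 22.5% of all genes, and none of either list was at 0 in mock. Their part in the results below was not tested. In bulk tumours, fewer cells of a type and less RNA per cell cannot be told apart. Nothing in the labels states that each knockout tumour grew in its own animal, and p-values therefore measure only the spread between these libraries.

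Ribosomal protein genes took 9.60% of all counts in mock (exact binomial 95% interval 9.58% to 9.61%, counting error only), with 9.48%, 8.52% and 11.2% in c11, c15 and c22. The knockout mean was 9.72% ± 1.33 (SD, n = 3), and mock lay inside the knockout range of 8.52% to 11.2%. Large-subunit genes gave 59.3% of the members' counts in mock, with 59.9%, 59.4% and 58.5% in c11, c15 and c22, so the division between the subunits varied less than the total. Counts of mitochondrial genome transcripts were 2.04% of all in mock, with 2.08%, 1.86% and 2.62% in c11, c15 and c22, lowest in c15 and highest in c22 as for the ribosomal protein genes. The part of this in the result was not tested.

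**Figure D1:**
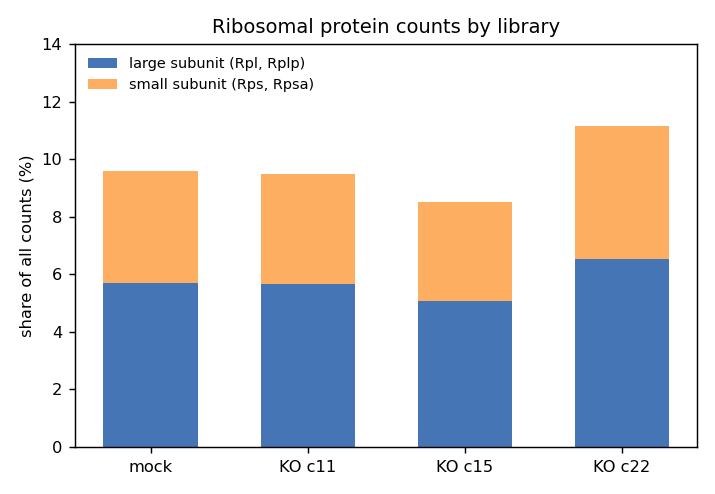
Share of all counts (%, y axis) taken by large-subunit (blue) and small-subunit (orange) ribosomal protein genes in each of the 4 libraries (x axis). The total is 9.60% in mock and spans 8.52% (c15) to 11.2% (c22) in the knockout libraries.

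The comparison of the knockout libraries with mock found no member that passed the test. With edgeR's quasi-likelihood test, 80 members were tested and 0 passed an adjusted p of 0.05 as lower, beside 0.00637% of all 15706 genes, and 0 as higher, beside 0.0%. At an unadjusted p under 0.05 there were 0 members, beside 3.68% of all genes. DESeq2 called 0 members in either direction, beside 0.42% of all genes lower and 0.306% higher, and limma-voom called 0. The 2 members not tested were Rpl3l and Rpl10l, which had too few counts. The median fitted log2 fold change (knockout minus mock) was -0.0014 for the members and 0.05 for all genes. The interquartile ranges were 0.21 for the members and 0.63 for all genes. Among genes with a mean of at least 5 CPM they were 0.21 and 0.50.

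Of the 80 tested members, 4 lay below mock in all 3 knockout libraries, beside 22.5% of all genes, and 5 lay above it in all 3, beside 21.0% of all genes. The other 71 had knockout libraries on both sides of mock. The 4 below were Rpl7a, Rpl41, Rps3 and Rps7. The 5 above were Rpl30, Rplp1, Rpl34, Rpl23a and Rps15a.

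Rpl7a (chromosome 2, 26910764 to 26913318, plus strand, GRCm38), a large-subunit protein gene that also hosts small nucleolar RNAs, had the lowest fitted change and the smallest p of the members. It was at 1012 CPM in mock, with 702, 650 and 684 CPM in c11, c15 and c22. The 3 knockout libraries lay close together, at 678 ± 26.4 CPM (SD, n = 3), and none reached the mock level. The log2 fold change fitted by edgeR was -0.57 (SE 0.25, unadjusted p = 0.066, adjusted p = 1.0), so it did not pass. Of the 50-base stretches of its transcript, 81.2% occur in transcripts of other genes, and reads there cannot be assigned to 1 gene with certainty. The pseudogene row Rpl7a-ps5 had 84.8 CPM in mock, with 128, 97.2 and 83.7 CPM in c11, c15 and c22, levels well under those of the parent gene. It is 1 of 14 pseudogene rows named for Rpl7a, and 123 genes share such stretches with Rpl7a. The part of these copies in its level was not tested.

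Rpl41, which encodes the shortest ribosomal protein, was at 2542 CPM in mock, with 2075, 1879 and 2313 CPM in c11, c15 and c22. Its fitted log2 fold change was -0.28 (SE 0.27), about the size of its error. Rpl17, a protein at the mouth of the exit tunnel, was at 806 CPM in mock and 808 in c11, and at 537 in c15 and 535 in c22. So 2 of the libraries were low and 1 was at the mock level, with a fitted log2 fold change of -0.36 (SE 0.34). Rps15 was at 1401 CPM in mock, with 1167, 1102 and 1403 CPM in c11, c15 and c22, while Rps21 was at 825, 773, 533 and 868 CPM. Both had c22 at or above mock.

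Rpl30, a large-subunit protein, had the highest fitted change. It was at 397 CPM in mock, with 647, 431 and 654 CPM in c11, c15 and c22. It had a fitted log2 fold change of 0.55 (SE 0.36, edgeR adjusted p = 1.0). The c11 and c22 libraries were alike and high, and c15 was near mock. Exons on the other strand overlap 62.0% of the bases of Rpl30, and the strand setting of the counting is not given. Rpl21 was at 371 CPM in mock, with 465, 312 and 656 CPM in c11, c15 and c22. Rps2, a small-subunit protein at the mRNA entry, was at 2939 CPM in mock, with 3043, 2762 and 5122 CPM in c11, c15 and c22. Rps28 was at 488 CPM in mock, with 503, 423 and 891 CPM in c11, c15 and c22. For Rps2 and Rps28 the higher knockout mean rested on c22, and without c22 their fitted log2 fold changes were -0.02 and -0.08. That of Rpl21 was 0.06 without c22 and 0.37 with it.

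The other members on 1 side of mock in all 3 knockout libraries lay closer to it. Rps3, a protein of the mRNA entry channel, was at 2102, 1981, 1860 and 2077 CPM, and Rps7 at 1341, 1286, 1107 and 1269 CPM. Of the higher ones, Rpl34 was at 939, 1120, 984 and 1097 CPM, Rps15a at 759, 776, 807 and 916 CPM, and Rpl23a, a docking site at the exit tunnel, at 1158, 1259, 1497 and 1188 CPM. In each of these 5 genes at least 1 knockout library was within 5% of mock. Exons on the other strand overlap 55.4% of the bases of Rpl23a. Of its 50-base stretches, 82.6% occur in transcripts of other genes, so its level is uncertain. In mock, levels of the tested members ran from 1.45 CPM for Rpl24 to 4510 CPM for Rplp0.

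**Figure D2:**
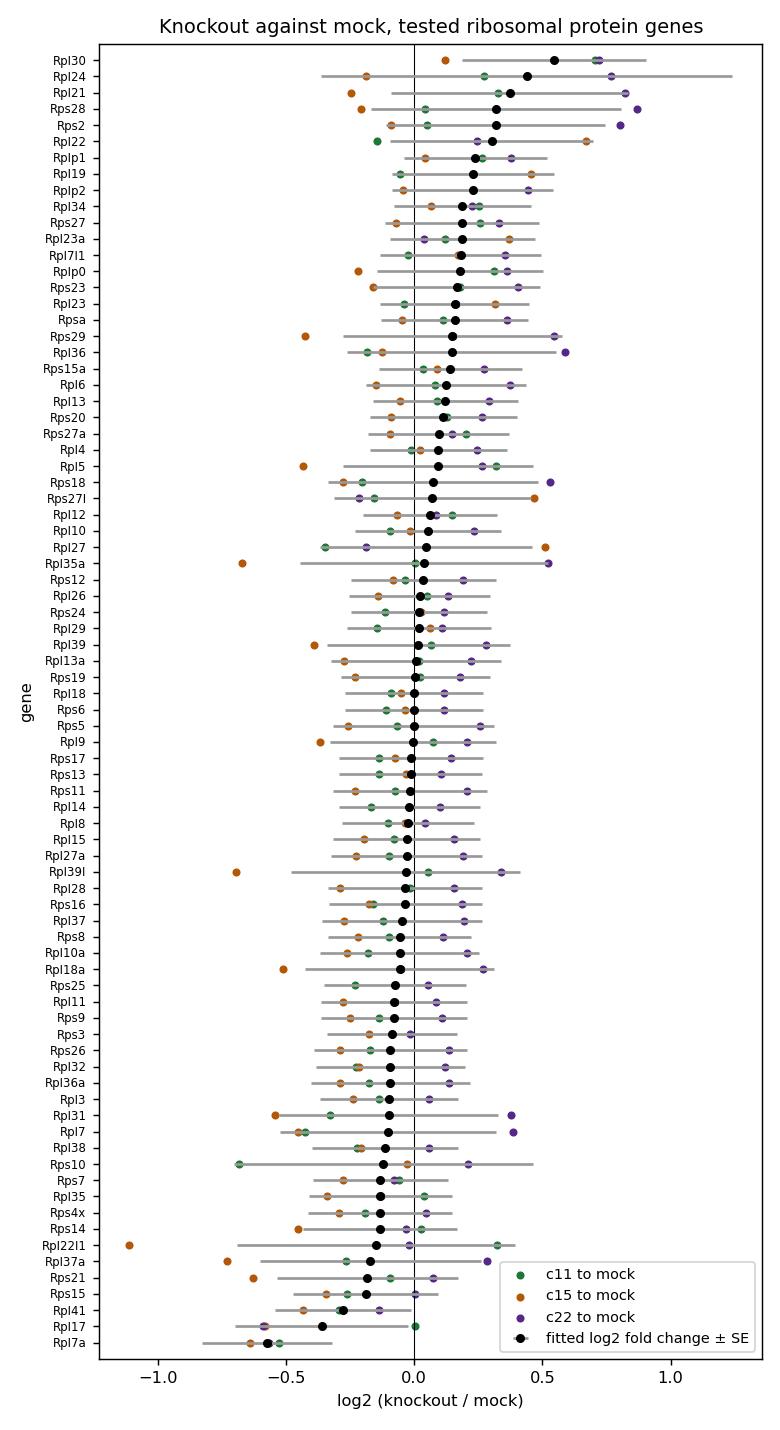
Log2 ratio to mock of each knockout library (coloured points) and fitted log2 fold change with its SE (black points and grey bars, x axis) for the tested members (y axis). Rpl30 is at the top at 0.55 and Rpl7a at the bottom at -0.57, and for most members the c15 point lies left of the c22 point.

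By role in the ribosome, 0 members of any group were called. Rpl5 and Rpl11 join the 5S rRNA in the particle that also binds the p53 regulator MDM2. Rpl5 was at 2217 CPM in mock, with 2768, 1641 and 2660 CPM in c11, c15 and c22. Rpl11 was at 1136, 1079, 936 and 1204 CPM. In both, c15 was the lowest library and mock lay inside the knockout range. Exons on the other strand overlap 46.6% of the bases of Rpl5.

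The P stalk recruits the translation elongation factors and is built from Rplp0, Rplp1 and Rplp2 on a base that includes Rpl12. Rplp0 was at 4510 CPM in mock, with 5602, 3873 and 5793 CPM in c11, c15 and c22. Rplp1 was at 1728, 2073, 1777 and 2246 CPM, and so lay above mock in all 3 lines. Rplp2 was at 683, 800, 662 and 929 CPM, and Rpl12 at 1628, 1802, 1552 and 1727 CPM. The fitted log2 fold changes of the 4 genes lay between 0.06 and 0.24, with 0 of 4 called. Per kilobase of transcript, Rpl41 (4048 CPM per kb, mean of 4 libraries), Rplp1 (3920) and Rplp0 (3641) had the highest levels of the 80 tested members, whose median was 1456.

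Rps6 encodes the substrate of S6 kinase, and phosphorylation of that protein, a common readout of mTORC1, was not measured here. The mRNA of Rps6 was at 1323 CPM in mock, with 1224, 1291 and 1432 CPM in c11, c15 and c22. Its fitted log2 fold change was -0.0022. Rps27a, made as a fusion with ubiquitin, was at 1149, 1322, 1075 and 1274 CPM. Of the 18 members whose human genes are linked to Diamond-Blackfan anaemia, an inherited failure of red cell formation, 0 were called. In all 3 lines 1 of the 18 lay below mock and 0 above, beside 22.5% and 21.0% of all genes. The fitted log2 fold changes of the 18 ran from -0.13 to 0.32. Of the ribosomal protein genes outside the name rule, Rps3a1 was at 2531 CPM in mock, with 1543, 2413 and 2647 CPM in c11, c15 and c22, while Fau was at 849, 722, 595 and 958 CPM.

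The knockout libraries differed from each other across most members. Of the 79 members with a mean of at least 5 CPM, 69 were higher than mock in c22, with a median log2 ratio (CPM with 0.5 added) of 0.19. In c15, 65 of 79 were lower, with a median of -0.21. In c11, 48 were lower, with a median of -0.07. Over all genes at that level the median was 0.04 (c11), 0.01 (c15) and -0.02 (c22). Of these 11315 genes, 5456 were higher than mock in c22, 5582 were lower in c15 and 5262 were lower in c11. The 3 directions were the same under TMM, upper quartile and median-of-ratios scaling, where the medians of the members were -0.12 to -0.09 in c11, -0.24 to -0.20 in c15 and 0.20 to 0.21 in c22.

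Of the 80 tested members 73 were higher in c22 than in c15, beside 49.7% of all genes, with a median log2 ratio of 0.35. Among the 79 with a mean of at least 5 CPM, these were 42 of 48 large-subunit and 30 of 31 small-subunit genes. Of all genes at that level, 48.4% were higher in c22 than in c15. c22 was the highest of the 4 libraries for 61 of the 79 members, beside 26.5% of all genes, and c15 the lowest for 52, beside 26.5%. With 1 library per line there is no replicate of a line, so a difference between lines and a difference between tumours cannot be told apart. The host marker sums given above for c15 and c22 also differed, and their part in this was not tested.

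**Figure D3:**
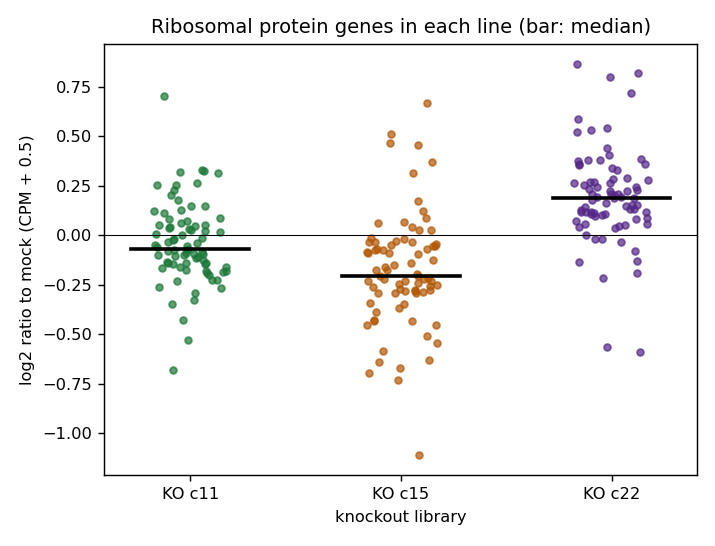
Log2 ratio to mock (y axis, CPM with 0.5 added) of each member with a mean of at least 5 CPM in the 3 knockout libraries (x axis), with the median as a bar. The medians are -0.07, -0.21 and 0.19 in c11, c15 and c22.

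On some chromosomes the members had log2 ratios to mock like those of the other genes there. In c22 the 7 members on chromosome 17 (Rpl10a, Rpl36, Rpl7l1, Rps10, Rps18, Rps2 and Rps28) had a median log2 ratio to mock of 0.53, from 0.21 to 0.87, and the 556 other genes of that chromosome a median of 0.51. In c15 the 7 members on chromosome 11 had a median of 0.32, from -0.21 to 0.51, and the 914 other genes 0.27. Rpl19, Rpl23, Rpl23a and Rpl27 were the 4 of them that were higher than mock in c15, by log2 ratios of 0.45, 0.32, 0.37 and 0.51. In c11 the 5 members on chromosome 5 had a median of 0.31 and the 742 other genes 0.28. On chromosome 16 in c15 the direction was shared but not the size. Both members there with a mean of at least 5 CPM, Rpl35a and Rpl39l, were low, with a median of -0.68. The other 372 genes had -0.38. Rpl35a was at 650, 650, 408 and 932 CPM, among the widest ranges of the members.

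Many other chromosomes did not show this. In c15 the 14 members on chromosome 7 had a median of -0.20 and the 796 other genes 0.0036, the 4 on chromosome 10 had -0.32 and the others -0.01, and Rpl17 and Rps14 on chromosome 18 had -0.52 and the others 0.07. On chromosomes 8 and 12 in c15 the medians were -0.28 and -0.35 for the members, and 0.04 and 0.10 for the others. In c22 the medians on chromosome 8 were 0.28 for the members and -0.10 for the others, and Rps23 on chromosome 13 was at 0.41 where the others had -0.07. Over 79 members, the log2 ratio of a gene and the median of the 25 tested genes on each side of it had a Pearson r of 0.27, 0.64 and 0.49 in c11, c15 and c22. The points of 1 library share its depth and the mock library, so the values are a description. After the neighbours' median was subtracted, the members' median was -0.09, -0.20 and 0.15 in c11, c15 and c22, near the values before. What gives a chromosome's genes a like ratio was not tested.

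**Figure D4:**
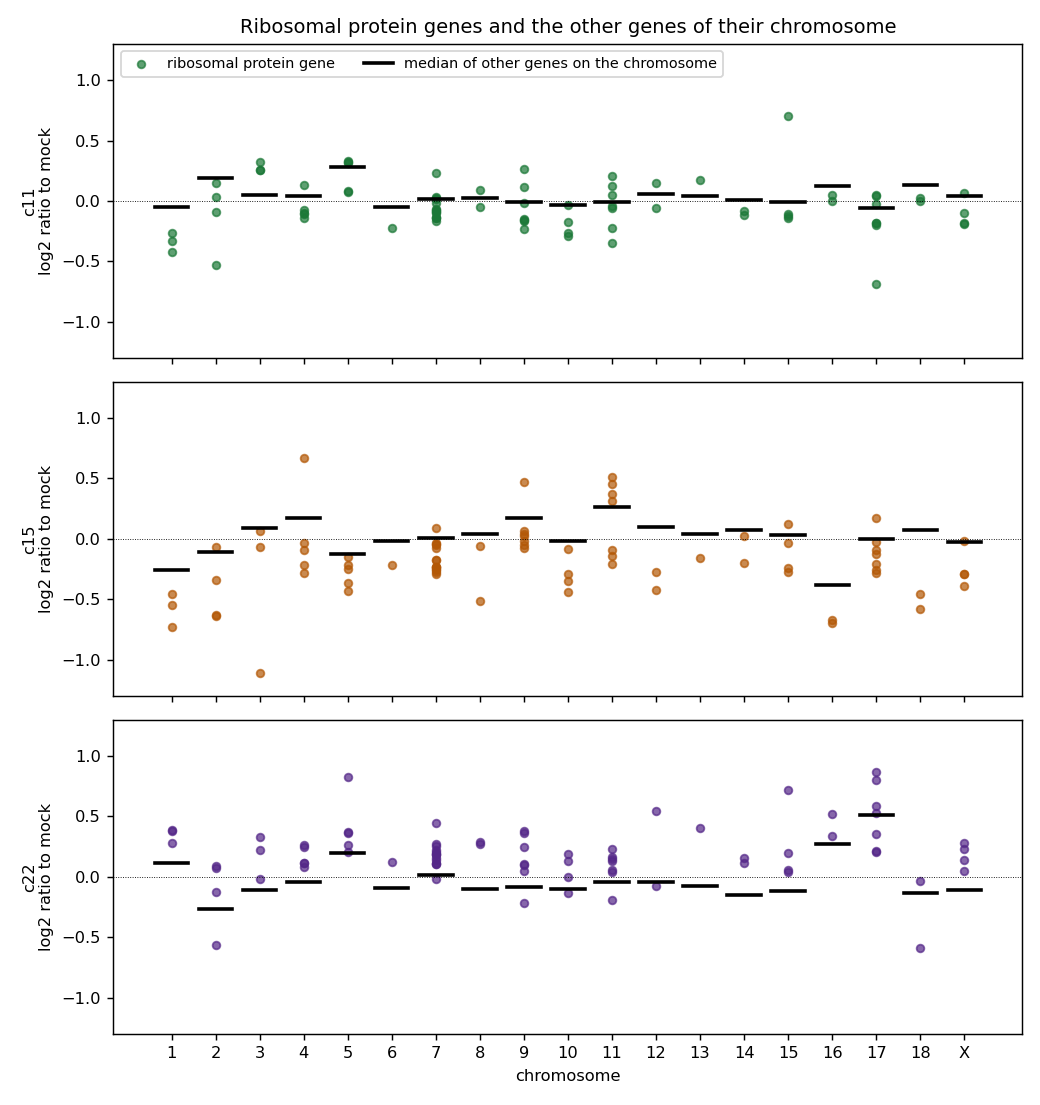
Log2 ratio to mock (y axis) of each member (points) and the median of the other genes (bar) on each chromosome (x axis), with 1 panel per knockout library. On chromosome 17 in c22 the 7 members lie at 0.21 to 0.87 around a bar at 0.51, and on chromosome 11 in c15 around a bar at 0.27.

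Several members are paralogues of another, and the share of each pair was compared within a library, which removes most of the scaling. Rpl22 and Rpl22l1 encode related large-subunit proteins, and RPL22 is known to restrain its paralogue. Rpl22 (chromosome 4, 152325742 to 152334071, plus strand) was at 349 CPM in mock, with 316, 556 and 414 CPM in c11, c15 and c22. Rpl22l1 (chromosome 3, 28805436 to 28807424, plus strand) was at 429 CPM in mock, with 537, 198 and 422 CPM in c11, c15 and c22. Its share of the pair was 55.1% in mock, with 62.9%, 26.3% (exact interval 25.4% to 27.2%) and 50.5% in c11, c15 and c22. The c15 library stood apart, with Rpl22 at its highest and Rpl22l1 at its lowest. Of the 50-base stretches of Rpl22l1, 51.4% occur in transcripts of other genes, and of those of Rpl22, 5.16%. The level of Rpl22l1 carries that uncertainty.

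In c15 the neighbours of Rpl22 had a median log2 ratio of 1.05 where the gene had 0.67. The neighbours of Rpl22l1 had 0.31 where the gene had -1.11, so its low level was not shared by the genes beside it. The fitted log2 fold changes against mock were 0.30 (SE 0.40) for Rpl22 and -0.15 (SE 0.54) for Rpl22l1, and neither passed. Without c15 they were 0.07 and 0.16, and for Rpl22 without c11 the value was 0.49.

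Rpl39l, a paralogue of the exit tunnel protein Rpl39 that is known from the testis, was at 247 CPM in mock, with 256, 152 and 312 CPM in c11, c15 and c22. Rpl39 itself was at 371, 388, 283 and 451 CPM, and Rpl39l made up 40.0%, 39.8%, 35.0% and 40.9% of the pair. The transcript of Rpl39l shared no 50-base stretch with a searched transcript of another gene. For Rpl39, Rps27, Rps27l, Rpl7 and Rpl7l1, 16.5%, 46.2%, 16.2%, 49.3% and 7.48% of such stretches were shared. Rps27l, a p53 target and paralogue of Rps27, was at 200 CPM in mock, with 179, 277 and 172 CPM in c11, c15 and c22. It made up 21.5%, 17.0%, 28.4% and 15.8% of its pair. Rps27 was at 731, 873, 696 and 920 CPM, so in c15 the paralogue was at its highest and the parent at its lowest. Rpl7 was at 2147, 1598, 1566 and 2804 CPM. Rpl7l1, known for a part in ribosome assembly, made up 8.51% of its pair with Rpl7 in mock, with 10.9%, 12.6% and 8.36% in c11, c15 and c22.

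The paralogue of striated muscle, Rpl3l, had 8 counts in mock, with 0, 3 and 1 in c11, c15 and c22, beside 28371 counts of Rpl3 in mock. The skeletal muscle markers were also highest in mock, as given above, and their part in this was not tested. Rpl10l, a paralogue of the testis, had 0 counts in all 4 libraries. Rpl36al, outside the name rule, made up 0.194% of the pair with Rpl36a in mock, on 9 counts. Of the 50-base stretches of Rpl36a, 85.5% occur in transcripts of other genes, so this share is uncertain.

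**Figure D5:**
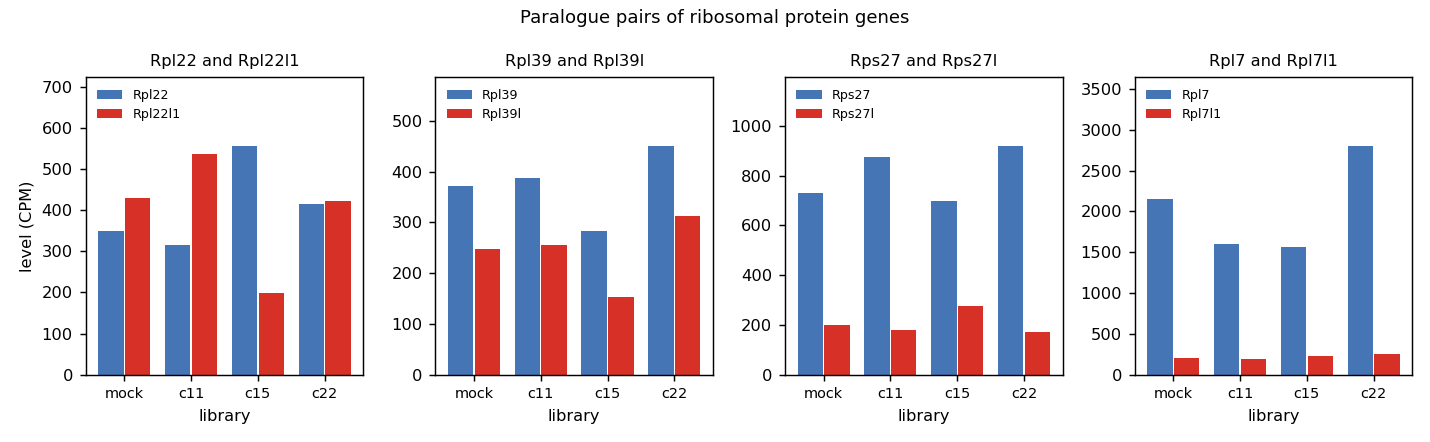
Levels (CPM, y axis) of 4 parent genes (blue) and their paralogues (red) in each library (x axis); each panel has its own scale. Rpl22l1 exceeds Rpl22 in mock, c11 and, narrowly, c22, and is at 198 CPM beside 556 CPM for Rpl22 in c15.

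Near-identical copies and overlapping annotations limit single levels. Exons of other genes overlapped 5 members on the same strand and 16 on the other strand. Of the 82 members, 79 shared at least 1 stretch of 50 bases with a transcript of another gene, and 22 shared over 50% of theirs, with a median of 33.4%. Across the 80 tested members, the level per kilobase and the share of such stretches had a Spearman rho of 0.20. The 311 pseudogene rows named for ribosomal protein genes held 0.344% of all counts in mock, with 0.313%, 0.309% and 0.393% in c11, c15 and c22.

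A few members stood far below the rest of the ribosome. Rps10 was at 7.27 CPM in mock, with 4.34, 7.12 and 8.49 CPM in c11, c15 and c22, while its processed copy Rps10-ps2 had 313, 266, 261 and 459 CPM. Exons of a readthrough gene on the same strand cover 47.9% of the Rps10 coding transcripts. Rpl24 was at 1.45 CPM in mock, with 1.86, 1.21 and 2.83 CPM in c11, c15 and c22, while 71.5% of its transcript is covered by Gm28037. Rpl13a was at 159 CPM in mock, with 161, 132 and 186 CPM in c11, c15 and c22, with 59.3% covered, nearly all by Gm45713. The readthrough gene Gm49804, Gm28037 and Gm45713 had 0 counts in all libraries. How the counting treated reads in shared exons was not stated, so these 3 levels are uncertain. Rpl17 has 2 processed copies with many counts, Rpl17-ps10 and Rpl17-ps3. Rpl17-ps10 was at 505, 135, 267 and 375 CPM, and Rpl17-ps3 at 172, 259, 322 and 342 CPM. Rpl17-ps10 lay below mock and Rpl17-ps3 above it in all 3 knockout libraries, and the Rpl17 values above carry that uncertainty.

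The genes that build the ribosome were described beside the proteins in it. Of 30 ribosome biogenesis genes, 0 were called with edgeR and 0 had an unadjusted p under 0.05. Their median log2 ratio to mock was -0.47, 0.11 and -0.87 in c11, c15 and c22, so c22, where the ribosomal protein genes were highest, had them lowest. Of the 30 genes, 8 lay below mock in all 3 lines and 0 above, beside 22.5% and 21.0% of all genes. Nop10, a protein of the pseudouridine-guiding particle, was at 134 CPM in mock, with 68.4, 108 and 72.2 CPM in c11, c15 and c22. Mrto4, an assembly factor of the P stalk site, was at 66.1, 51.9, 178 and 36.7 CPM.

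Of 19 RNA polymerase I genes, which make the ribosomal RNA, 0 were called and 1 had an unadjusted p under 0.05, beside 3.68% of all genes. Of the 19, 8 lay below mock in all 3 lines and 0 above, beside 22.5% and 21.0% of all genes. Their medians were -0.48, -0.08 and -0.55 in c11, c15 and c22. Cd3eap, a subunit of the polymerase and the gene with that p, was at 63.4, 22.9, 30.8 and 23.0 CPM (fitted log2 fold change -1.304, SE 0.34, edgeR adjusted p = 0.676). Polr1b, the second largest subunit, was at 144 CPM in mock, with 65.4, 124 and 37.7 CPM in c11, c15 and c22. Of 12 chaperones of ribosomal proteins 0 were called, with medians of -0.15, 0.20 and -0.41.

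The other TOP mRNAs of translation factors, 25 genes, had 0 calls and medians of -0.16, -0.06 and -0.06. They did not share the higher values in c22. Of the 25, 8 lay below mock in all 3 lines and 2 above, beside 22.5% and 21.0% of all genes. Of 21 genes of mTORC1 and TOP control, 0 were called. In all 3 lines 6 lay below and 3 above mock, beside 22.5% and 21.0% of all genes. At an unadjusted edgeR p under 0.05 there were 2, beside 3.68% of all genes. These were Ddit4, an mTORC1 inhibitor that hypoxia induces, and Sesn2, another inhibitor. Ddit4 was at 235 CPM in mock, with 97.8, 85.6 and 67.2 CPM in c11, c15 and c22, with all knockout lines below mock. Sesn2 was at 28.3 CPM in mock, with 60.0, 63.9 and 60.5 CPM in c11, c15 and c22, with all above it. Myc was at 3.47 CPM in mock, with 14.9, 24.1 and 3.75 CPM in c11, c15 and c22, an order of libraries that was not that of the ribosomal protein genes. The Myc row held 43, 193, 318 and 49 counts, and whether it takes in the overexpressed c-MYC of AXT cells was not tested. DESeq2 called 1 of the genes in these 5 lists, Ddit4 among the 21 (lower), beside 0.42% of all genes lower and 0.306% higher. With limma-voom, 0 were called.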

How the data were processed

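Directional libraries of tumour poly(A) RNA were sequenced, per the labels' protocols. The authors deposited unnormalized counts for each Ensembl gene and library. The submitters' processing notes name HISAT2 2.1.0, featureCounts 1.6.3, Trimmomatic 0.38, SAMtools 1.9 and FastQC 0.11.7, with the build GRCm38. For strand and multiple mapping, the settings are not given in the sources used here. Genes kept by filterByExpr (15706) were TMM-scaled and tested by quasi-likelihood in edgeR 4.0.16 under R 4.3.3 (2-sided, Benjamini-Hochberg over all genes). The spread came from the knockout libraries alone and was taken to hold for mock (2 residual degrees of freedom, biological coefficient of variation 0.442). DESeq2 1.42.0 and limma-voom 3.58.1 were alternatives, with other filters and scalings. Shared 50-base stretches and overlaps used GENCODE M21. Starts and promoters came from RefSeq.

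The members, lists and rules were chosen with earlier results of these data known. Named members were the 5 highest and 5 lowest fitted changes and the 5 widest ranges among knockout libraries (all 3 sets limited to means of 5 CPM or more), and also the 3 highest per length, paralogue pairs and role genes; for each described list, up to 4 genes. Rpl13a, Rpl24, Rps10, Rps3a1, Fau, Myc, and the genes named by chromosome or side of mock were named after their values were seen. For 1 gene, no value is reported here.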

Additional observations from a re-analysis of the deposited data

How the results depend on the processing

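Over all genes, the 1 lower call became 66 with DESeq2, 4 with no filter and 0 with limma-voom, and it was 0 to 0 when a knockout library was left out; the 0 higher calls became 48 with DESeq2. The members had 0 calls in either direction under every setting run, and their median log2 fold change ran from -0.12 without c22 to 0.08 without c15. The start tract was present in 46.8% instead of 21.0% of members when it could begin within 5 bases. The knockout minus mock share of counts was 0.12 percentage points, and 0.24, 0.72 and -0.60 without c11, c15 and c22. Of 261 refits of named members, 19 changed sign, and the cause was not tested. When each knockout library was left out in turn, the lowest and highest changes were -0.061 and 0.134 for Rpl10, -0.180 and 0.0098 for Rpl11, -0.442 and 0.160 for Rpl22l1, -0.305 and 0.292 for Rpl35a, and -0.153 and 0.181 for Rpl39. They were -0.282 and 0.208 for Rpl39l, -0.021 and 0.293 for Rpl5, -0.447 and 0.048 for Rpl7, -0.024 and 0.484 for Rps2, -0.185 and 0.185 for Rps27l, -0.084 and 0.524 for Rps28, and -0.078 and 0.062 for Rps6. The sign change came without c22 for Rpl10, Rpl35a, Rpl39, Rps2 and Rps28, without c15 for Rpl11, Rpl22l1, Rpl39l and Rps27l, and with either of 2 libraries left out for Rpl5, Rpl7 and Rps6. With limma-voom, Rpl35a was at -0.046 and Rpl39 at -0.011. With upper quartile scaling Rpl39 was at -0.0091, and with no filter Rps6 was at 0.00078. No paired analysis was possible because the labels give no replicate numbers shared between mock and the knockout lines. With 1 mock library, a change under the spread between lines was not detectable, and larger changes could also fail to pass. Rpl7a had a fitted log2 fold change of -0.57 where its knockout log2 ratios spanned 0.11, and it did not pass. The 0 calls among the members therefore do not show that their levels were unchanged. Intervals of shares cover counting error only.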
